A study of Mus musculus with 7 samples.

Results

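The histone genes of the mouse were described by where LEF1 and TCF1 peaks lie around them in naive CD8 T cells. A gene was counted as a histone gene when its RefSeq symbol on build GRCm38.p6 began with H1f, H2ac, H2bc, H3c, H4c or H2az, when it was H3f3a or H3f3b, or when an older symbol of it had the Hist1h to Hist4h form. This gave 75 of the 21883 protein-coding genes on chromosomes 1 to 19, X and Y. Of these, 71 were found by their current symbol and 4 by the older one, namely H4f16 (Hist4h4), H2bu2 (Hist3h2ba), H2aw (Hist3h2a) and H4bc24 (Hist1h2br, counted with H2B). By class there were 10 genes for linker histone H1, 18 for H2A, 18 for H2B, 12 for H3, 13 for H4, 2 for H2A.Z and 2 for H3.3.

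CUT&RUN was used to map both factors: an antibody brings a nuclease to the bound protein, and the DNA cut around it is sequenced. The series holds 3 LEF1 libraries, 3 TCF1 libraries and 1 input control. All come from spleens of mice labelled WT. The T cells are labelled TCRP14 transgenic, which means that they bear the same antigen receptor, P14, and so share a single specificity. The antibody libraries were sorted as CD8+, Ly5.1+, CD44- and CD62L+, the surface state of naive cells, and fixed with PFA, whereas the input control passed another gate (CD8+, Ly5.1- and CD44+), and no peak list from it was used here. Nothing in the labels ties replicates to different animals, so a p-value reflects only how these libraries scatter, and that scatter may be technical.

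The lists held 37646 peaks at most (LEF1 replicate 2) and 11423 at least (TCF1 replicate 3), and they carry no read totals, so depth is not given beyond list length. Markers of CD8 T cells had a peak at a gene end in all 6 libraries in 5 of 5 cases. Of the markers of other cells, at least 2 libraries of LEF1 and of TCF1 had a peak at 1 of 5 B cell genes, 1 of 5 myeloid genes and 1 of 4 NK cell genes, and of 4 erythroid genes none was reached by LEF1 and 1 by TCF1. Over all protein-coding genes the same was true of 33.0% for LEF1 and 32.0% for TCF1. A peak list does not measure expression.

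Histones package DNA: H2A pairs with H2B, H3 pairs with H4, and these form the core around which DNA is wrapped, while linker histone H1 binds the DNA between cores. Most core and linker histone genes lie in clusters, lack introns, and are known as replication-dependent, that is, transcribed mainly while a cell copies its DNA, whereas H2A.Z and H3.3 are replaced into chromatin throughout the cell cycle. LEF1 and TCF1 are close relatives that bind DNA through an HMG box, and they are known in T cells for their role in lineage identity and in keeping naive cells unspecialised.

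Promoters of H2bc9, H2bc7 and H2aw are shown because each lay in a strong peak region and holds the letters CTTTGAT, a core motif that LEF1 and TCF1 are known to bind. Capitals mark it, read on either strand, in the RefSeq promoter table of GRCm38.p6. The bases run 5′ to 3′ along the gene and end just before its start.
H2bc9 (chr13:23543445-23543594, minus strand): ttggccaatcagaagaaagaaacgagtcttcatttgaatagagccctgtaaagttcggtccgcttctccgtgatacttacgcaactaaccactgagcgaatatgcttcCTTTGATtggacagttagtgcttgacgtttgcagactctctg
H2bc7 (chr13:23574208-23574357, minus strand): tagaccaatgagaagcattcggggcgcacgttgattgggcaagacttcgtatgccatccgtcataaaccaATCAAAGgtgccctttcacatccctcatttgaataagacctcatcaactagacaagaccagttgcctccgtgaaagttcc
H2aw (chr11:58954505-58954684, plus strand): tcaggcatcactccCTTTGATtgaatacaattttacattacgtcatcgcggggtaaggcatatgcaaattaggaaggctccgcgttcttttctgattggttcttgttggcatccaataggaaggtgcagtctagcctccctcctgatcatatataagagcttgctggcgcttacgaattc
In H2bc9 the motif spanned positions -42 to -36 from the start, and in H2aw positions -166 to -160. In H2bc7 it is read on the opposite strand, at -80 to -74. H2bc8 is shown for the layout of a replication-dependent promoter. Its capitals mark CCAAT, ATTTGCAT (the octamer bound by OCT1) and TATAAA.
H2bc8 (chr13:23571250-23571399, plus strand): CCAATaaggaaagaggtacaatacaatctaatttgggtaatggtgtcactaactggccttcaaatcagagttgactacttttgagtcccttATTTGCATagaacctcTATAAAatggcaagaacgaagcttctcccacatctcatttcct
H2bc23 and H4bc24 are shown because they are copies of each other and neither had a peak in any library.
H2bc23 (chr13:21810200-21810299, minus strand): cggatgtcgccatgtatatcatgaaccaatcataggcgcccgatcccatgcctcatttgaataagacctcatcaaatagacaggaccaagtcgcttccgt
H4bc24 (chr13:21833643-21833742, plus strand): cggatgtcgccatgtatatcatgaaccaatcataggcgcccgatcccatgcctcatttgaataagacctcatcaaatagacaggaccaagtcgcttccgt

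In every library a larger share of histone genes than of all protein-coding genes had a peak. A gene was counted when a peak interval overlapped the 1 kb on either side of its start or end. In LEF1 replicates 1, 2 and 3 the share of histone genes with a peak was 73.3%, 76.0% and 69.3%, and in TCF1 replicates 1, 2 and 3 it was 73.3%, 69.3% and 48.0%. Over all protein-coding genes the shares were 32.2%, 38.9% and 29.5% for LEF1 and 35.8%, 32.8% and 19% for TCF1. The histone share was the higher in each of the 6 libraries, by 29.0 to 41.2 percentage points. Histone genes are short, with a median length of 502 bp against 17170 bp for all protein-coding genes, so that their 2 windows overlap: the median number of bases searched was 2502 for a histone gene and 4002 for a protein-coding gene. On the promoter window alone, from 250 bp before to 50 bp after the start, 58.6% to 65.7% of the 70 histone genes with a listed start were touched in LEF1 and 38.6% to 60.0% in TCF1. The same window was touched at 26.0% to 34.1% and 17.3% to 32.9% of 17491 genes.

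**Figure D1:**
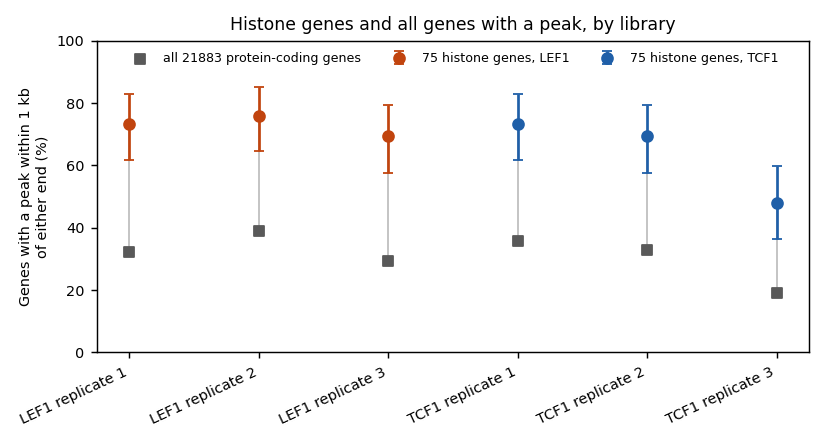
Share of genes with a peak within 1 kb of either gene end (vertical axis, percent) in each library. Circles are the 75 histone genes with exact binomial 95% intervals, and squares are all protein-coding genes. The intervals cover counting error only. They treat genes as independent although neighbours often share a peak, so they may be too narrow. Circles sit at 69.3% to 76.0% for LEF1 and at 48.0% to 73.3% for TCF1, above the square of the same library.

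LEF1 and TCF1 were not told apart by how many histone genes they reached. LEF1 libraries had a peak at 72.9% ± 3.36 of histone genes on average and TCF1 libraries at 63.6% ± 13.6 (SD, n = 3 libraries each). The difference of 9.33 percentage points was within the spread (exact permutation test, two-sided, p = 0.500, smallest possible 0.1), and without TCF1 replicate 3, the shortest list, it was 1.56. Over all protein-coding genes the margin came to 39.3 ± 2.08 points with LEF1 and 34.4 ± 4.62 with TCF1 (SD, n = 3 each; exact permutation p = 0.200), a difference of 4.99 that was 2.33 without TCF1 replicate 3. When each list was limited to its best 11423 peaks, the LEF1 margin lay at 34.6 to 36.3 points and the TCF1 margin at 26.6 to 33.1, with no overlap (difference 5.72, exact permutation p = 0.1, the smallest possible). In those equal lists the share of histone genes itself overlapped, at 50.7% to 52.0% for LEF1 and 45.3% to 52.0% for TCF1, while the share of all genes was 15.6% to 16.1% and 18.7% to 19%.

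Distinct peak intervals at histone gene ends numbered 49, 58 and 46 in the LEF1 libraries and 49, 43 and 24 in the TCF1 libraries. The difference of means was 12.3 (exact permutation p = 0.300), and 5 without TCF1 replicate 3. Within its list, each interval was given a rank percentile by the authors' deposited fold enrichment, where a low percentile is a strong peak. The median over histone intervals was 39.7, 37.5 and 38.9 for LEF1 and 43.0, 43.1 and 44.0 for TCF1. The groups did not overlap, at a difference of -4.65 (exact permutation p = 0.1, the smallest possible), but with equal list sizes the difference was -1.54 (exact permutation p = 1.00). Adjusted over the 5 library-level tests by the Benjamini-Hochberg method, the exact permutation p-values were 0.5 to 0.6.

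A factor was taken to hold a gene when at least 2 of its 3 libraries had a peak there. LEF1 held 55 of 75 histone genes (73.3%; 33.0% of all protein-coding genes) and TCF1 held 52 (69.3%; 32.0%). Both held 52 (29.9% of all genes), which is 94.5% of the LEF1 genes and 100% of the TCF1 genes. A peak was present in all 6 libraries at 36 histone genes (48.0%, against 18.6%), and in none at 17 (22.7%, against 59.2%). With a window of 500 bp LEF1 held 54 and TCF1 50, and with 2 kb 60 and 56. The shares of all genes held at these 2 windows were not computed. Genes are not replicates here, since neighbours often share a peak: of 55 merged regions at histone gene ends, 21 lay within 1 kb of more than a single member. At 15 genes (20.0%, against 8.60% of all genes) the peak was missing from TCF1 replicate 3 alone, and regions so lost had a median deposited fold enrichment of 9.29 in the other 5 libraries against 22.8 for histone regions of all 6. Without TCF1 replicate 3, 51 genes had a peak in every library left. These were the 36 with a peak in all 6 (18.6% of all genes) and the 15 just named (8.60%).

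**Figure D2:**
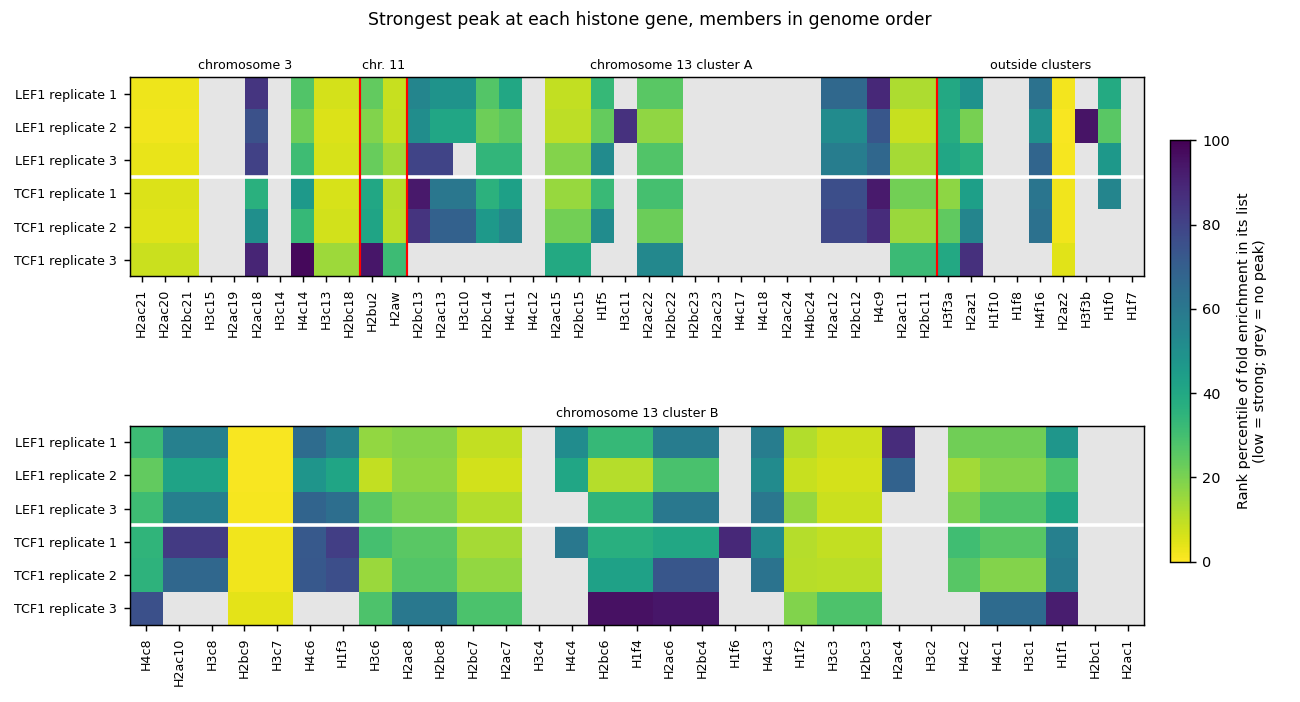
Rank percentile of the strongest peak at each of the 75 histone genes (columns, in genome order within clusters) in each library (rows). Yellow is a strong peak within its list, dark blue a weak one and grey no peak. Of the 17 columns grey in every row, 7 lie in chromosome 13 cluster A, 6 of them side by side. The bottom row, TCF1 replicate 3, has the fewest coloured cells, 36 of 75.

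Among H2A and H2B genes, LEF1 held 14 and TCF1 13 of 18 H2A genes, and both held the same number, 15, of 18 H2B genes. The histone region with the lowest mean rank percentile, 1.98, lay at H2bc9 (H2B) and H3c7 (H3), chr13:23543181-23545105, with H2az2 next at 2.09. Its deposited fold enrichment was 79.4, 101 and 69.0 in LEF1 replicates 1, 2 and 3 and 64.5, 57.7 and 31.7 in TCF1 replicates 1, 2 and 3. It ranked among the top 0.911% to 4.29% of each list. Counted from the start of H2bc9, with positions before it negative, the summit stood at -912 to -904 bp, inside H3c7, in 5 libraries, and at -87 bp in LEF1 replicate 2. The CTTTGAT of the H2bc9 promoter printed above is therefore inside the region but away from most of its summits.

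H2A and H2B genes often stand head to head, with their starts 164 to 281 bp apart in 10 pairs, counting H2ac24 with H4bc24. At 4 pairs a single interval covered both starts in all 6 libraries, at 6 in at least 1 library, and 3 pairs had no peak at all. H2ac7 and H2bc7 are such a pair, at chr13:23574087-23574510. Its fold enrichment was 34.1, 46.9 and 28.2 in LEF1 and 28, 24.2 and 13.6 in TCF1. All 6 summits fell at -137 to -115 bp from the H2bc7 start, upstream of the CTTTGAT shown above at -80 to -74. The pairs H2ac15 with H2bc15, H2ac11 with H2bc11 and H2ac8 with H2bc8 were covered in the same way, with fold enrichments of 11.2 to 38.3, 12.7 to 42.5 and 8.38 to 27.3.

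The cluster on chromosome 3 (chr3:96219885-96270192) held 2 of the next strongest clustered regions. At H2ac20, H2ac21 and H2bc21, chr3:96220669-96222161, the fold enrichment was 58.7, 75.2 and 48.3 in LEF1 and 45.4, 44.3 and 24.8 in TCF1. At H2bc18 and H3c13, chr3:96269090-96270339, it was 40.4, 53.2 and 38.8 in LEF1 and 42.9, 38.3 and 19.2 in TCF1, with summits at -123 to -104 bp from the H2bc18 start. In this cluster 7 of 10 members had a peak, and the count was 7 in each library, TCF1 replicate 3 included. The chromosome 11 pair, H2aw and H2bu2, also had peaks in all 6 libraries. At H2aw, chr11:58954251-58955156, the fold enrichment was 35.3, 40.9 and 25.2 in LEF1 and 32.0, 30.8 and 12.8 in TCF1, and that region also lay within 1 kb of Trim17. The median summit stood at -100 bp from the H2aw start, whereas the CTTTGAT shown above is at -166 to -160.

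Both chromosome 13 clusters together carry 54 members, 23 in cluster A (chr13:21715711-22043658) and 31 in cluster B (chr13:23531044-23934913). LEF1 and TCF1 each held 15 of 23 in cluster A, and in cluster B they held 26 and 24 of 31. In TCF1 replicate 3 the counts were 6 and 18. Over both clusters LEF1 libraries had a peak at 74.7% ± 3.85 of members and TCF1 libraries at 64.2% ± 17.2 (SD, n = 3 each), a difference of 10.5 points within the spread (exact permutation p = 0.6) and of 0.617 without TCF1 replicate 3. Of the 9 other protein-coding genes inside the chromosome 13 spans, LEF1 held 3 and TCF1 2, beside 33.0% and 32.0% of all genes.

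H3 genes were held at 7 of 12 by each factor and H4 genes at 10 of 13 by LEF1 and 9 by TCF1. At H2bc3 and H3c3, chr13:23745486-23746967, fold enrichment was 37.7, 48.2 and 33.9 in LEF1 and 35.0, 30.8 and 13.7 in TCF1, with the median summit at +10 bp from the H2bc3 start and -1224 bp from the H3c3 start. H4 genes ranked lower by their strongest peak within 1 kb of a gene end, wherever its summit lay. The H4 gene with the lowest mean percentile over the libraries with a peak, H4c2 at chr13:23756673-23757153, had fold enrichments of 20.7, 31.7 and 20.3 in LEF1 and 16.3 and 18.3 in TCF1, with no peak in TCF1 replicate 3. H4c1, in a region shared with H3c1, had a peak in all 6, of 20.7, 25.8 and 16.5 in LEF1 and 18.4, 22.5 and 7.91 in TCF1. TCF1 replicate 3 had a peak at 3 of the 13 H4 genes, whereas the other 5 libraries had one at 9 or 10. Over H4 genes with a peak the median of the mean rank percentile was 46.7, against 27.9 for H2B, 28.5 for H2A and 25.1 for H3. The H3 value includes H3c13 (7.49) and H3c3 (11.5), whose median summits lay in the promoters of H2bc18 and H2bc3. H3 genes with the median summit in their own promoter window stood at 20.6 (H3c6), 54.7 (H3c10), 61.0 (H3c8) and 85.7 (H3c11, 1 library). The H3 value thus does not rank H3 promoters above H4 promoters.

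At the linker histone genes the strongest peak lay mostly behind the gene and not before it. Of 10 H1 genes, LEF1 held 6 and TCF1 5. By the median position over libraries, the strongest summit fell in the promoter window at none of those 6, and at 5 it fell past the far end of the gene, by 287 bp for H1f2, 318 bp for H1f0, 394 bp for H1f3, 398 bp for H1f5 and 551 bp for H1f4. Of the 44 other held members with a listed start, 35 had their median summit in the promoter window and 6 past the far end. At H1f4 the summit coincided with the promoter of the neighbour H2bc6, and at the other 4 it was in the promoter of no histone gene. The H1f0 regions also lay within 1 kb of an end of Gcat.

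H1f2, the gene for H1.2, had the strongest peak of the linker class, at chr13:23739479-23740304. Its fold enrichment was 30.5, 42.6 and 23.6 in LEF1 and 31.3, 30.5 and 16.7 in TCF1, with summits 994 to 1042 bp after the start. A weaker region over the H1f2 promoter itself, chr13:23738350-23739173, had 5.4, 7.31 and 4.95 in LEF1 and 10 and 8.67 in TCF1, and none in TCF1 replicate 3. Of the 6 held H1 genes, H1f0, H1f3 and H1f5 had no peak on their own promoter window in any library, and H1f4 had one in 2. At H1f1 the promoter had a peak in 5 libraries, of fold 8.80 to 16.1, and its strongest summit stood at -49 and -62 bp in LEF1 and TCF1 replicate 1 and at -1208 to -1058 bp in the other 4 libraries, with a median of -1088. H1f0, the gene for H1.0, known to build up in cells that have left the cell cycle, had fold enrichments of 13.5, 20.8 and 11.1 in LEF1 and 10.1 in TCF1 replicate 1, and no peak in the other TCF1 libraries.

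**Figure D3:**
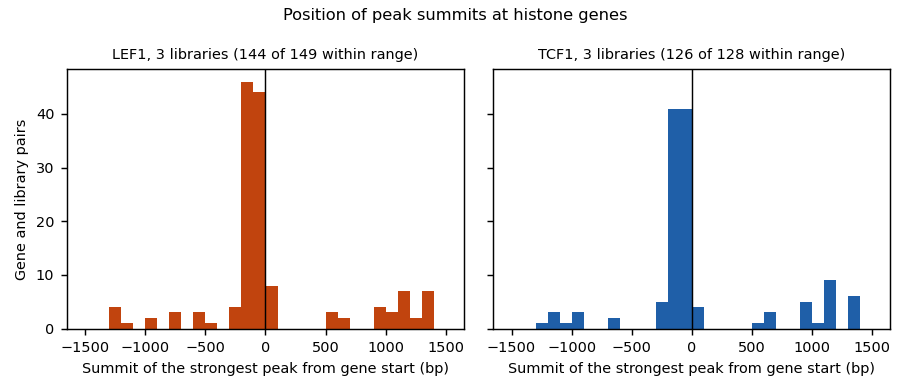
Distance in bp from the annotated gene start to the summit of the strongest peak, for histone genes with a peak and a listed start, pooled over the 3 libraries of each factor; counts are pairs of gene and library, and the few summits beyond the axis are not drawn. The main mass lies just before the start in both panels. The smaller group well after the start holds the linker genes H1f2, H1f3, H1f4 and H1f5. It also holds core genes whose strongest summit lies in a neighbour's promoter (H2ac10, H2ac13, H2ac21 and H3c13), and H4c8, H4f16 and H2az1, where it does not.

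Apart from the linker genes, summits gathered just upstream of the start. With H1 genes left out, the strongest summit lay between 250 bp before and 50 bp after the start at 75.6% to 82.1% of genes with a peak and a listed start, depending on the library, and with them at 66.0% to 74.2%. A summit shared by a head-to-head pair can count for both of its genes, and the same share over all genes was not computed. Without H1 genes the median position was -92, -95 and -107 bp in LEF1 and -92, -98 and -104 bp in TCF1. The factors thus overlapped in position.

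Of the genes for replacement histones, H2az2 had a peak as strong as the top clustered genes. This gene encodes H2A.Z.2, and its region at chr11:6443570-6445002 had fold enrichments of 67.9, 100 and 69.8 in LEF1 and 63.2, 59.8 and 31.7 in TCF1. The summit stood at -152 to -139 bp from the start in all 6. H2az1, the gene for H2A.Z.1, was covered in all 6 libraries as well, more weakly. At its promoter region, chr3:137863653-137864556, fold enrichment was 9.08, 24.1 and 13.4 in LEF1 and 11.3, 10.2 and 5.90 in TCF1, and a further region inside the gene, chr3:137865350-137866271, was present in 5 libraries.

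H3f3a and H3f3b encode the same protein, H3.3. At H3f3a, chr1:180813177-180814014, the fold enrichment was 13.3, 14.9 and 12.4 in LEF1 and 24.6, 18.9 and 11.2 in TCF1, and the summit stood at -58 bp in every library. At H3f3b only LEF1 replicate 2 had a peak within 1 kb of a gene end, of fold 4.84. Its listed start, however, lies 1535 bp inside the gene as annotated, beyond the window. Just upstream of that start, at chr11:116024531-116024950, all 6 libraries had a peak, of fold 28.1, 47.8 and 23.5 in LEF1 and 30.0, 29.8 and 13 in TCF1. H3f3b is thus counted as not held only because of where its gene model ends. H2bc6, a long gene model in cluster B, likewise had a region of all 6 libraries at an inner start, chr13:23585757-23586631, of fold 14 to 32.7, besides the one at its outer end.

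The 17 genes without a peak in any library were 3 H1, 4 H2A, 3 H2B, 4 H3 and 3 H4 genes. H2ac1 and H2bc1, the testis histones TH2A and TH2B, H1f7, a linker histone of spermatids, and H1f8, the oocyte linker histone, are known from germ cells. H1f6, the testis linker histone H1t, had a peak of fold 5.56 in TCF1 replicate 1 only. H1f10, which encodes H1X and is widely expressed, had no peak either. In cluster A, H2bc23, H2ac23, H4c17, H4c18, H2ac24 and H4bc24 stand next to each other in a stretch of 97.0 kb between the nearest regions on each side (last base 21787635, next first base 21884638 on chromosome 13). On chromosome 3, H3c14, H3c15 and H2ac19 had none, and H3c2, H3c4 and H4c12 on chromosome 13 make up the rest.

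Several of these genes are copies. Promoters at least 90% identical over 300 bases to that of another member were found for 8 genes, and 7 of these had no peak, against 10 of the 62 other members with a listed promoter. H2bc23 and H4bc24 matched at 300 of 300 bases, as the sequences above show for the last 100. H4c17 and H4c18 matched at 298, H3c14 and H3c15 at 284, and H4c11 and H4c12 at 275. H4c11 was the copy with a peak, in 5 libraries, with the median summit at -726 bp from its start. That peak lay outside its promoter window, which had a peak in no library. How reads that map to several copies were treated is not given in the sources used here, and their part in these missing peaks was not tested. Leaving the 8 genes out, 10 members had no peak in any library.

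**Figure D4:**
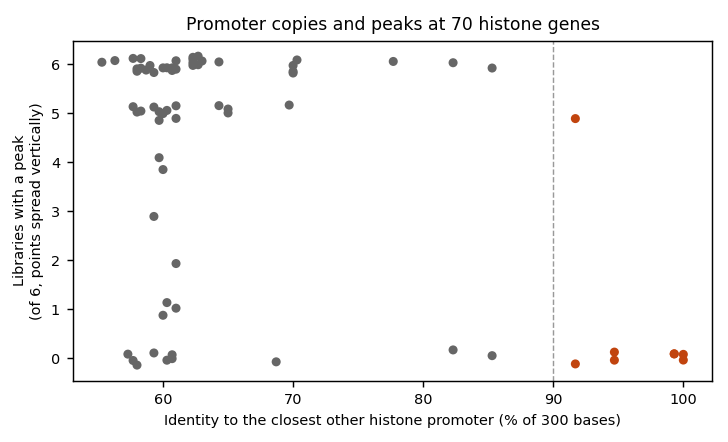
Identity of each histone promoter to the closest other one (horizontal axis, percent of 300 bases) against the number of libraries with a peak at the gene (vertical axis, 0 to 6, points spread vertically so that they can be told apart) for 70 genes. Red points, right of the dashed line at 90%, are the 8 near-identical copies, of which 7 lie at 0 libraries and 1 at 5.

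LEF1 but not TCF1 held 3 histone genes, and TCF1 but not LEF1 held 0 (2.17% of all protein-coding genes). Both counts rest on the libraries used. The first was 19 without TCF1 replicate 1 or without TCF1 replicate 2, which leaves replicate 3 to decide. It was 1 without LEF1 replicate 1 or 2, and 16 where all 3 libraries of a factor were required. The second was 1 without LEF1 replicate 1 or 2. With lists of equal size the counts were 3 for LEF1 and 2 for TCF1. Shares of all protein-coding genes were computed only for the full lists with at least 2 of 3 libraries. Whether other genes shift alike under the changed settings was not tested. In the full lists the 3 LEF1 genes were H1f0 (3 LEF1 and 1 TCF1 libraries), H2ac4 (2 and 0) and H4c4 (2 and 1). Such genes made up 4.00% of histone genes and 3.11% of all protein-coding genes. At H2ac4 the fold enrichment was 5.82 and 8.14 in LEF1 replicates 1 and 2, at rank percentiles of 87.2 and 68.5. At H1f0 the median summit lay 318 bp past the far end of the gene, and no library had a peak on its promoter window. The H1f0 regions are also near an end of Gcat.

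Strength was compared by rank among the 10890 regions present in all 6 libraries, of which 24 lay at histone genes. At 9 of the 24 (37.5%, against 17.4% of the 10890) every LEF1 library ranked the region higher than any TCF1 library, and at 3 (12.5%, against 17.5%) every TCF1 library ranked it higher. With 3 libraries a group the exact permutation p of each was 0.1, the smallest possible, and over all 10890 regions the Benjamini-Hochberg adjusted p was 0.287, so no region passed. The widest gap was at H3f3a, on the TCF1 side: rank percentiles were 81.0, 89.9 and 76.2 in LEF1 and 39.7, 50.1 and 40.9 in TCF1, or 82.3 ± 6.99 and 43.6 ± 5.72 (SD, n = 3 each). H2ac18, at 98.8 ± 0.919 in LEF1 and 85.0 ± 6.64 in TCF1, and H1f2, at 30.3 ± 3.05 and 22.8 ± 3.22, were the other 2 of that kind.

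On the LEF1 side the gap was widest at H2bu2, with percentiles of 56.8, 60.4 and 49.2 in LEF1 and 82.2, 78.1 and 94.3 in TCF1. It was next widest at H1f4 with H2bc6, where the mean was 59.2 ± 18.8 in LEF1 and 84.3 ± 9.98 in TCF1. The strongest regions also ranked higher in LEF1, by little: 2.78 ± 0.340 against 4.78 ± 0.242 at H2bc9 with H3c7, and 3.4 ± 0.904 against 4.74 ± 0.434 at H2az2.

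**Figure D5:**
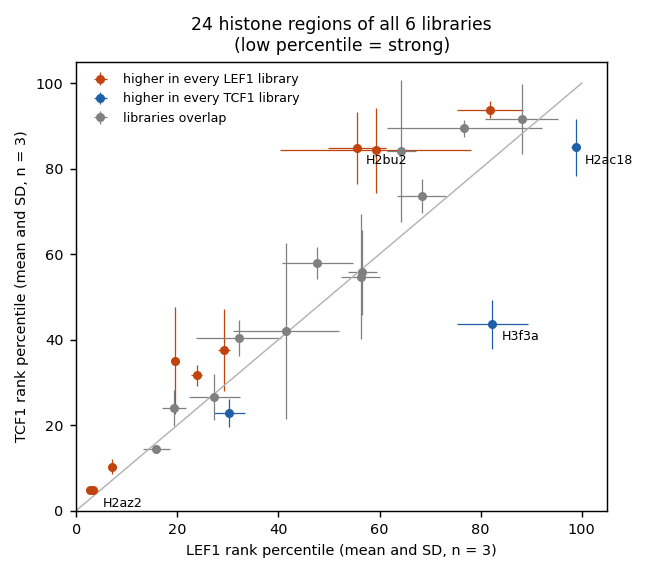
Rank percentile by fold enrichment among the 10890 regions of all 6 libraries, for the 24 regions at histone genes, LEF1 (horizontal) against TCF1 (vertical); points are means and bars SD over 3 libraries, and the line marks equal ranks. H3f3a lies far to the right of the line, at 82.3 for LEF1 and 43.6 for TCF1, and the 9 red regions, ranked higher by every LEF1 library, lie above it.

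Sequence motifs were counted in the 300-base promoter windows of 70 histone genes and of 32851 listed promoters, on both strands. CTTTGAT was in 5 histone promoters (7.14%, against 3.73% of all), namely H2bc9, H2bc7, H2ac7, H2aw and H1f7, and H2bc7 and H2ac7 share the same bases. CTTTGAA was in 1 (1.43%, against 5.14%), H3c2. Either of them was in 8.57% of histone promoters and 8.65% of all. The letters typical of histone promoters were common: CCAAT in 82.9% (37.4% of all), TATAAA in 51.4% (13.6%) and ATTTGCAT in 20.0% (1.74%). By class, CCAAT was in 100% of H2A, H2B and H3 promoters, 7 of 10 H1 and 3 of 12 H4 promoters. Among promoters of members held by a factor 86.0% had CCAAT and 8% CTTTGAT, and among the others 75% and 5%. A match of letters is a description of these windows and not evidence of a bound site.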

How the data were processed

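Sorted, fixed spleen CD8 T cells were profiled by CUT&RUN with antibodies to LEF1 (3 libraries) and TCF1 (3 libraries), grouped by sample title. Per the submitters' processing notes, the build was GRCm38.p6 and the tools included MACS3 3.0.3, Bowtie2 2.4.4, Picard, deepTools 3.5.1, Trim Galore 0.6.6 and FastQC 0.12.1. How peaks were called and filtered, against which control, and how duplicates and repeats were handled was not given in the sources used here. Each list was deposited per library by the authors. The deposited fold enrichment is a ratio of the signal at a summit to its background. The deposited p-value and q-value are −log10 values, and the smallest −log10 q was 2.00 to 2.06. The deposited score was not used. These are the authors' values, used only within a list, to rank, filter or describe its peaks.

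Intervals listed with several summits counted once. Gene ends were those of RefSeq on GRCm38.p6, with 21883 protein-coding genes on the chromosomes used, without strand or exons, so introns and UTRs were not told apart. Starts and strands came from the RefSeq promoter table, which lists 70 of the 75 members. Clusters are members less than 500 kb apart. Regions are intervals of any library merged where they shared at least 1 bp. Library values were compared by a two-sided exact permutation test, with 20 ways to assign 3 and 3 libraries. Intervals of shares are Clopper-Pearson intervals at 95%, for counting error alone, and they treat genes as independent although neighbours often share a peak.

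The members and lists were chosen with earlier results of these data known. Named were all members outside clusters, the members with peaks in the most libraries and the best ranks (up to 8 for chromosome 13, 4 for each other cluster), members with a factor difference of at least 2 libraries, members without a peak, and the 6 best supply genes. H4c1, H4c2, H4c4, H4c8, H4c11, H1f1, H1f3 to H1f6, H2ac18, H2bc6, H2ac10, H2ac13 and the further head-to-head pairs were added after their values were seen. Alternatives were another window (500 bp or 2 kb), the summit in place of the interval, lists of equal size, a −log10 q of at least 5, other minimum numbers of libraries, each library left out and the replicate number as a block. Added after the data were seen were members by current symbol only and the removal of near-identical promoters. Analysis used Python 3.11.15, numpy 2.4.6, pandas 2.3.3 and scipy 1.17.1, and the code was tested on simulated data.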

Additional observations from a re-analysis of the deposited data

How the results depend on the processing

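All 65 alternatives of the 5 tested differences between LEF1 and TCF1 kept their direction, the replicate block not counted because it cannot change a mean difference, and 69 of 71 alternatives of the 5 gene counts stayed within 1.5 times. The number of histone genes without any peak, 17, was 33 with lists of equal size and 10 without the near-identical promoters, where fewer genes were counted. The equal-list count over all protein-coding genes was not computed. TCF1 replicate 3, the shortest list, moved several differences: the share difference of 9.33 points became 1.56 without it, the interval difference 12.3 became 5, and the chromosome 13 difference 10.5 became 0.617. With equal lists the share difference was 2.67, the interval difference 1.33 and the chromosome 13 difference 4.94. The LEF1 minus TCF1 difference of the margins over all genes was 4.99, and 7.51 with a window of 500 bp (exact permutation p = 0.1, the smallest possible). Leaving out TCF1 replicate 1 or 2 lowered the histone genes held by TCF1 from 52 to 36, and the same change over all genes was not computed. With the replicate number as a replicate block, the share difference was 9.33 (exact sign-flip permutation p = 0.500, smallest possible 0.25 over 8 sign patterns). The labels do not say what a number marks. Over 4065 genes with a peak in all 6 libraries, deviations from the group means were compared between LEF1 and TCF1 libraries. Same-numbered libraries correlated at -0.09, 0.24 and 0.31, and differently numbered ones at -0.40 to 0.37. Deviations from a mean of 3 libraries are tied to each other, so these values cannot decide whether the numbers pair the samples. List length limits all counts: a gene without a peak may be one whose peak was too weak to be listed.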

Other observations

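Genes that supply and place histones were mostly held as well. Of 28 genes listed for histone transcription, mRNA processing, chaperoning and deposition, LEF1 held 25 (89.3%) and TCF1 25 (89.3%), 23 were held by both and 18 had a peak in all 6 libraries, beside 33.0%, 32.0%, 29.9% and 18.6% of all protein-coding genes. TCF1 replicate 3 again had the fewest, 18. The best mean rank percentiles were those of Nap1l4, a chaperone of H2A and H2B (12.0), Asf1b, a chaperone of H3 and H4 (14.1), Mcm2, a replicative helicase subunit that also binds histones (14.5), Zfp473, a factor of histone mRNA processing (15.6), Asf1a (17.6) and Ssrp1, a subunit of the FACT complex (17.7). Npat, the coactivator of replication-dependent histone genes, had a peak in all 6 libraries, of fold 11.2 to 28.8, and so did Slbp, which binds the stem-loop of histone mRNA, of fold 8.09 to 21.5. Supt16, the other FACT subunit, had none. Npat and Slbp were chosen after their values were seen.

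Histone variants outside the symbol rule spanned the whole range. Cenpa, the H3 variant of centromeres, had a peak in all 6 libraries with fold enrichments of 34.6 to 101 and a mean rank percentile of 1.82, as strong as H2bc9 with H3c7 at 1.98 and H2az2 at 2.09. H2ax, the variant phosphorylated at DNA breaks, was covered in all 6 libraries at a percentile of 38.6, and H2aj in 5 at 66.7. Macroh2a1 had a peak in 3 libraries, and Macroh2a2 in none.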
